A study of Rattus norvegicus with 30 samples.

Results

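Transcript levels were compared between primary rat hepatocytes harvested 48 h after a dose of 5000 µM acetaminophen and hepatocytes harvested 24 h after the same dose. The comparison rests on 10 of the 30 arrays of the series, chosen by sample title, with 5 wells and 5 arrays at 48 h and 5 at 24 h. The question it addresses is how expression moved over the second day of exposure to the higher of the doses used. All wells held thawed, commercially frozen hepatocytes of male Sprague Dawley rats, which were plated on collagen under a Matrigel overlay and dosed on day 3 of culture. Wells given vehicle (1% DMSO) were harvested at 48 h and at 24 h, 5 arrays each, and measured the same way. They show the change between these times without the drug, over which a measure of RNA quality given below moved too. They are set beside the 5000 µM wells below, after them. The remaining 10 arrays, of wells given 500 µM, entered the fit through the shared estimate of spread and are described only for Ehhadh and Cyp4a1. The labels call the 5 wells of a group independent cultures but name no animal or lot, so the p-values below measure the spread between wells of purchased cells. Values are MAS5 signals, the intensity of a probe set in arbitrary linear units, and changes are 48 h minus 24 h on the log2 scale with the standard error of the fit. Calls were made in limma over the 8530 genes tested, with p-values adjusted by the Benjamini-Hochberg method and a threshold of 0.05, and "rose", "fell" or "changed" below is said of called genes.

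Acetaminophen is an analgesic that hepatocytes clear mainly by glucuronidation and sulfation. A part is oxidised by cytochrome P450 enzymes, Cyp2e1 among them, to a reactive quinone imine that is bound by glutathione. Hepatocytes in culture are also known to lose transcripts of P450 enzymes and of other differentiated functions with time. The nuclear receptor PPAR-alpha is a fatty acid sensor of the liver that drives genes of fatty acid uptake and of peroxisomal, mitochondrial and microsomal fatty acid oxidation, while SREBP1 and LXR drive genes of fatty acid synthesis and desaturation. Interferon-stimulated genes are switched on through IRF and STAT factors, and acute phase genes of hepatocytes through cytokines such as interleukin-6.

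The hepatocyte markers read 342951 to 476127 in sum over the 7 probe sets on the array at 48 h and 381835 to 446153 at 24 h at 5000 µM, and of the 7 only Ahsg, which encodes fetuin A, was called (change -0.17, lost under 3 other settings and 5 of 10 leave-one-out fits). The sum over Kupffer cell and leukocyte markers was 21300 to 23491 at 48 h and 20357 to 23248 at 24 h, and only Cd68, Lyz2 and Cd14 of its 11 probe sets were bright enough to be tested. Stellate cell markers summed to 2673 to 3100 at 48 h and 2408 to 3074 at 24 h. Of the 9 on the array only Col3a1 and Acta2 were bright enough to be tested. Sinusoidal endothelial markers summed to 888 to 1514 at 48 h and 972 to 1146 at 24 h, with Pecam1, Stab2, Lyve1 and Vwf below the brightness tested. Cholangiocyte markers did not overlap, at 11981 to 13125 at 48 h and 9577 to 11027 at 24 h. Most of that sum was Epcam, which rose by 0.25 at 5000 µM and by 0.56 in vehicle, while Krt19, Krt7, Cftr and Spp1 were too dim to test. RNA quality was read from the control probe sets of β-actin, as the signal at the 3' end over that at the 5' end (log2). At 5000 µM it was 1.21 ± 0.05 at 48 h and 1.37 ± 0.22 at 24 h (SD, n = 5 each, difference -0.16, exact two-sided permutation p = 0.0556), and the spread at 24 h came from replicate 1 at 1.76. In vehicle wells it was 1.24 ± 0.11 at 48 h and 1.78 ± 0.24 at 24 h (difference -0.53, exact permutation p = 0.00794, the smallest that 5 against 5 arrays can give). The 5 vehicle arrays at 24 h all lay above the 5 at 48 h, so within vehicle, culture time and this ratio cannot be told apart. Values of the difference between 5000 µM and vehicle were therefore also taken with the ratio as a covariate.

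Over the second day at 5000 µM, 2293 genes (26.9% of those tested) were called, of which 925 rose (10.8%) and 1368 fell (16%), so that 40.3% of the calls were rises. These shares are the base for the counts in gene lists below, and a list near them shows nothing particular to its members. Centring each array on its median turned this split round, to 1247 higher (59% of the calls) and 865 lower of 2112 called, so the balance of rises and falls depends on scaling. All 5 arrays at 48 h lay outside the range of the 5 at 24 h for 1562 of the genes tested (18.3%), above it for 673 (7.89%) and below it for 889 (10.4%). The largest rises and falls named below were picked among called genes of this kind, so their lack of overlap follows from the choice. Most changes were small, with a median size of 0.147 against a median standard error of 0.097. At least 2-fold changes were called for 69 genes (0.809%), 37 higher (0.434%) and 32 lower (0.375%). In vehicle wells 2770 genes (32.5%) were called over the same day, 1145 higher (13.4%) and 1625 lower (19.1%). Both comparisons called 985 genes, 846 of them in one direction, which is 36.9% of the calls at 5000 µM and 30.5% of those in vehicle, and 139 in opposite directions. Across the 8530 genes the changes with time correlated with Pearson r = 0.39 between 5000 µM and vehicle, a description over genes of arrays scaled and fitted together.

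The change at 5000 µM differed from that in vehicle for 1399 genes (16.4%), 660 with a positive (7.74%) and 739 with a negative difference (8.66%). These shares are likewise the base for differences counted in lists below. With the β-actin ratio as a covariate this count was 821, of which 747 were among the 1399. Of the 69 genes that changed at least 2-fold at 5000 µM, 44 also differed from vehicle, with a positive difference for 26 of the 37 that rose and a negative one for 17 of the 32 that fell. In these bulk arrays a change in RNA per cell and a change in the number of cells of a type cannot be told apart.

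**Figure D1:**
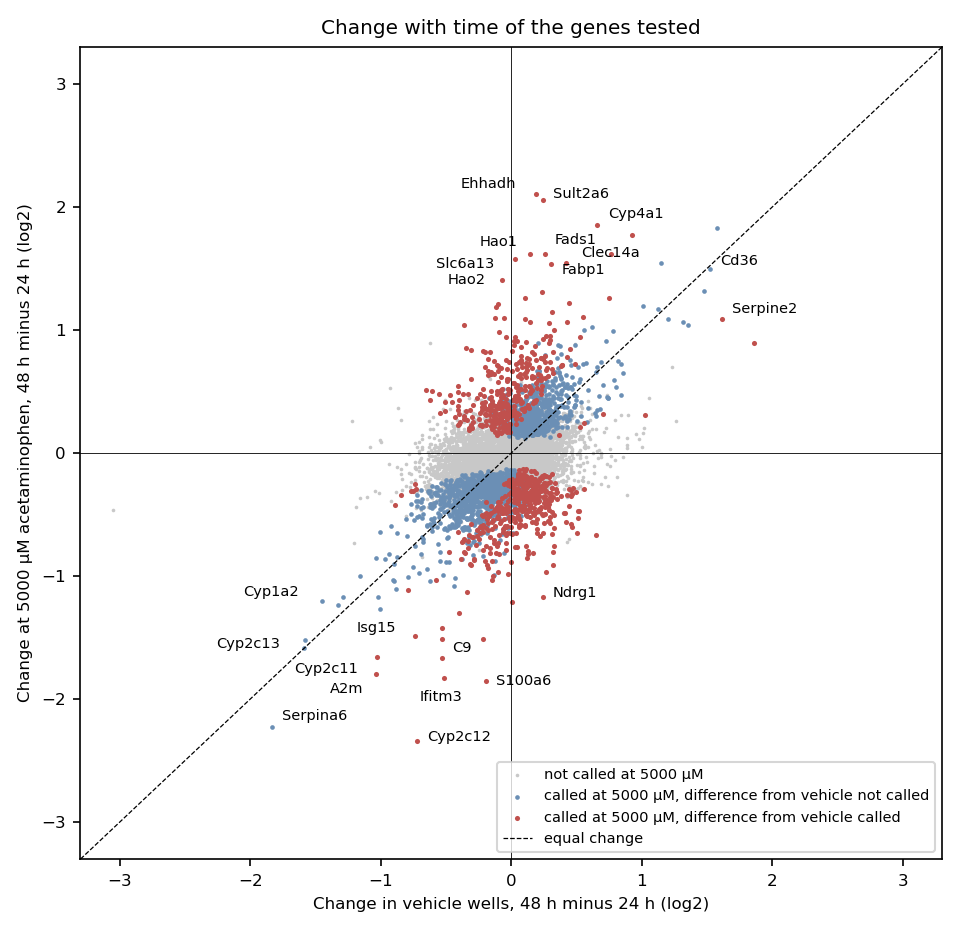
Change between 24 and 48 h of each of the 8530 genes tested, at 5000 µM acetaminophen (vertical, log2) against vehicle (horizontal, log2). Red genes were called at 5000 µM and differed from vehicle, blue genes were called without a called difference, and the dashed line marks equal change; Ehhadh, Sult2a6 and Cyp4a1 lie high above it, S100a6, Ifitm3 and C9 far below it, and Serpina6, Cyp2c13, Cyp1a2 and Cd36 close to it.

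Most genes of fatty acid oxidation rose over the second day at 5000 µM. Among 33 genes on the list of PPAR-alpha targets and beta-oxidation enzymes, rises were called for 25 (75.8%) and falls for 2 (6.06%), with a median change of 0.358. Over all genes tested 10.8% rose and 16% fell, with a median of -0.04. In vehicle wells the same list had 16 rises, 4 falls and a median of 0.156, and 16 of the 33 had a called positive difference from vehicle and 1, Pdk4, a negative one. Ehhadh, the bifunctional enzyme of peroxisomal beta-oxidation and a PPAR-alpha target, was the largest rise among all genes. Its signal was 7026, 6735, 6946, 9809 and 8661 at 48 h, against 2037, 1805, 1586, 1914 and 1699 at 24 h. The change was 2.10 ± 0.12 (adjusted p = 1.25e-14). Vehicle wells stayed near the 24 h level, at 2219 ± 224 at 48 h and 1957 ± 312 at 24 h, and the difference between the changes was 1.92 ± 0.17 (adjusted p = 5.93e-09). Cyp4a1, a microsomal fatty acid omega-hydroxylase and a classical PPAR-alpha target in rat liver, had signals of 34990, 30907, 29885, 37295 and 26750 at 48 h, against 8598, 9290.1, 8539, 9420 and 8068 at 24 h. The change was 1.86 ± 0.11 (adjusted p = 2.59e-14), and the 48 h level stood above that of vehicle wells, 11182 ± 1313 at 48 h and 7169.6 ± 1477 at 24 h. The difference from the vehicle change was 1.20 ± 0.16 (adjusted p = 2.83e-06). At 500 µM the means of Ehhadh were 8684 at 48 h and 4016 at 24 h, and those of Cyp4a1 were 24197 and 16105. High levels of these genes at 48 h were thus not particular to 5000 µM.

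Fabp1, the liver fatty acid binding protein, showed another course. Its signal was 8599, 7707, 8029, 7954 and 6881 at 48 h, against 2913, 2601, 2950.4, 2511 and 2528 at 24 h, a change of 1.54 ± 0.06 (adjusted p = 2.69e-18). In vehicle it was 7728 to 8676 at 48 h and 6248 to 7274 at 24 h, so the 5000 µM wells were below all vehicle wells at 24 h and at 48 h overlapped the vehicle arrays of both times. The difference between the changes was 1.23 ± 0.09 (adjusted p = 3.49e-11). Cd36, a fatty acid translocase, rose by 1.49 ± 0.20 at 5000 µM (adjusted p = 4.61e-07) and by 1.52 in vehicle, a difference of -0.03 that passed no threshold (adjusted p = 0.964). With the β-actin ratio as a covariate that difference was 0.53 and called, so it depends on how RNA quality is treated. Other members named after their values were seen were Cyp4a3, a second omega-hydroxylase (1.09), Decr2, the peroxisomal dienoyl-CoA reductase (0.90), Acaa2, the mitochondrial thiolase (0.76), and Hadha of the mitochondrial trifunctional protein (0.52), all of which rose. The 2 members that fell were Pdk4, the kinase that shuts off pyruvate dehydrogenase, and Cpt1a, the carnitine palmitoyltransferase of the mitochondrial outer membrane. Pdk4 was 8408, 8043, 8478, 7289 and 7279 at 48 h, against 14854, 14246, 14479, 13025 and 15149 at 24 h. It fell by 0.86 on the log2 scale (SE 0.08, adjusted p = 1.74e-10) to a level still above that in vehicle wells, 4792 ± 723 at 48 h and 5809 ± 407 at 24 h. Cpt1a fell by 0.53 at 5000 µM and by 0.40 in vehicle. Angptl4, another PPAR-alpha target, was at 0.12 ± 0.06 and not called (adjusted p = 0.157), with means of 21750 at 48 h and 20068 at 24 h, against 10436 and 9039 in vehicle. Peroxisome biogenesis genes had 4 rises and no fall of 17 tested, among them Pxmp2 (0.44), Pex7 (0.34) and the peroxisomal transporter gene Abcd3 (0.31).

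**Figure D2:**
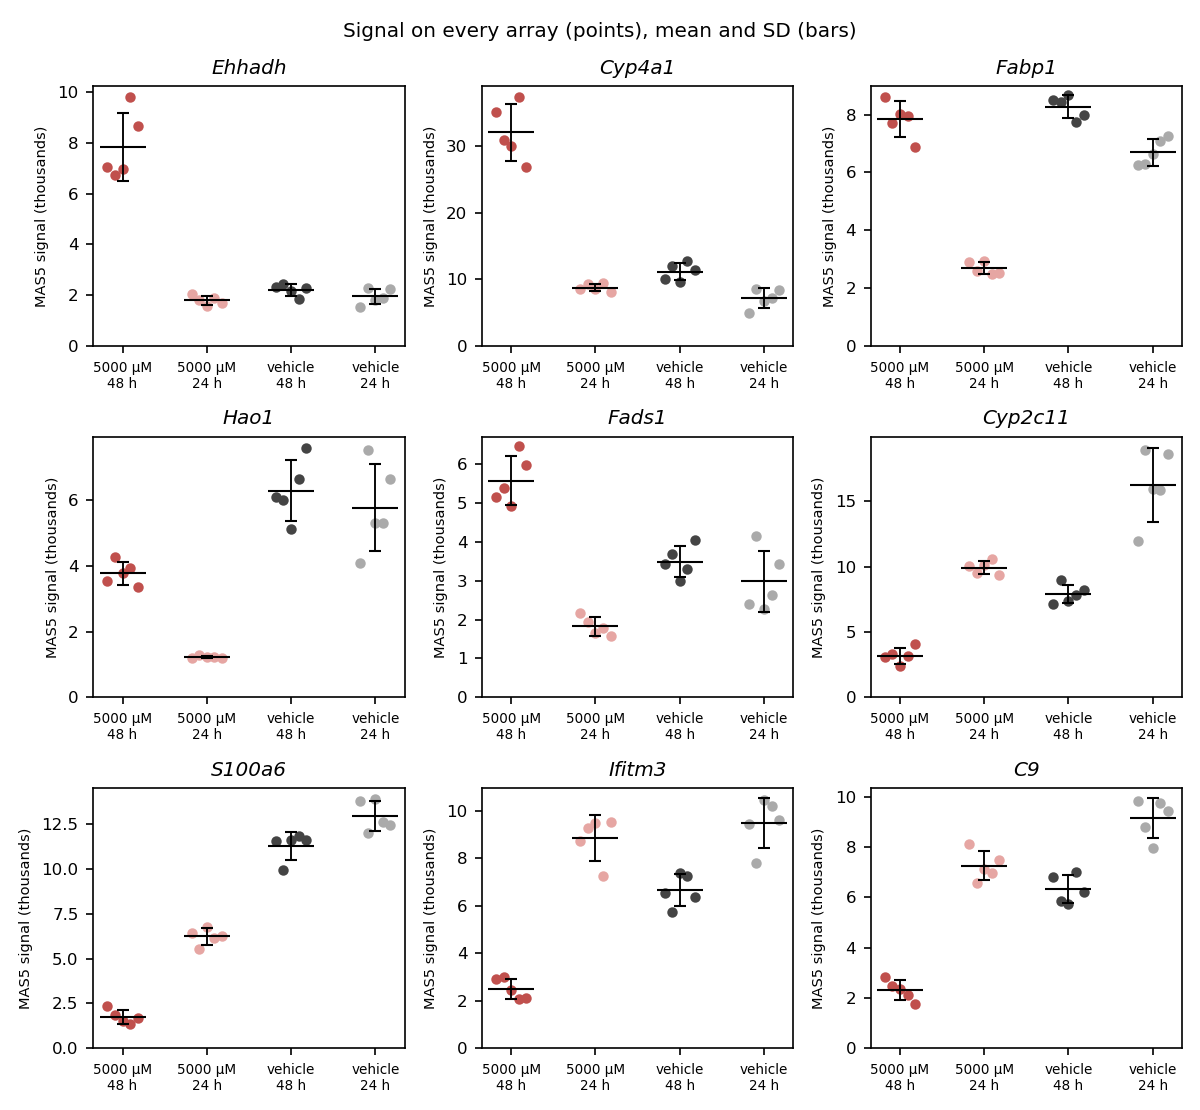
MAS5 signal (linear scale from 0, in units of 1000) of 9 genes on each array (points) with mean and SD (bars, n = 5), for 5000 µM at 48 h, 5000 µM at 24 h, vehicle at 48 h and vehicle at 24 h. In each panel the 2 groups at 5000 µM do not overlap, which was a condition for choosing these genes. Among the groups shown, Ehhadh and Cyp4a1 stand highest at 48 h at 5000 µM and Fabp1 and Hao1 lowest at 24 h at 5000 µM. Cyp2c11, S100a6, Ifitm3 and C9 stand lowest at 48 h at 5000 µM.

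The promoter stretch of Fabp1 is shown because it was the only one of 28 oxidation genes with a promoter entry in RefSeq (rat build GRCr8) that held a direct repeat of the PPAR response element type. The search was for AGGNCA repeated after 1 base, on both strands within 250 bases before and 50 after the gene start, and 0.415% of all 33469 promoter entries of that length held it. Capitals mark the match, read here on the opposite strand, which begins 77 bases before the gene start. The 160 bases before the start, on the coding strand 5′ to 3′, are:
Fabp1 upstream stretch, chr4:104749180-104749339: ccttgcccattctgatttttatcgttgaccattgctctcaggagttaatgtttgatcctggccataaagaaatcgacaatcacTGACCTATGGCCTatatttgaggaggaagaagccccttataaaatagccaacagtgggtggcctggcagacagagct
Ehhadh and the other 26 oxidation genes with an entry did not hold these letters in the window, which says nothing on elements elsewhere.

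Genes of fatty acid synthesis and storage had 13 rises and 1 fall of 23 tested, a median change of 0.304, against -0.096 for the same genes in vehicle, and 9 positive differences from vehicle. Fads1, the delta-5 desaturase of polyunsaturated fatty acid synthesis, was 5154, 5372, 4909, 6449.7 and 5984 at 48 h, against 2171, 1933, 1654, 1776 and 1579.8 at 24 h. The 48 h arrays lay above every vehicle array (vehicle 2984 to 4044 at 48 h and 2279 to 4144 at 24 h), and the change of 1.61 ± 0.13 (adjusted p = 9.58e-12) exceeded that of vehicle by 1.36 ± 0.18 (adjusted p = 2.33e-06). Pnpla3, a lipid droplet protein whose gene is driven by SREBP1, was 2960.4, 2209, 1578, 2753 and 2876 at 48 h, against 793, 882, 776, 705 and 456 at 24 h. Its change was 1.77 ± 0.19 (adjusted p = 6.93e-09), and it rose in vehicle too, by 0.93. The difference of 0.85 (adjusted p = 0.0256) was no longer called without vehicle 24 h replicate 1, where it was 0.72, or without 5000 µM 24 h replicate 5, where it was 0.69, and its other probe sets gave differences of 1.30, called, and -0.32, not called. Hsd17b13, a hydroxysteroid dehydrogenase that coats hepatocyte lipid droplets, was 35361, 31017, 29143, 34579 and 40215 at 48 h, against 11290, 11140, 9899, 13789 and 12187 at 24 h. Its change was 1.55 ± 0.11 (adjusted p = 1.44e-12), with a difference from vehicle of 1.13 ± 0.16 (adjusted p = 6.8e-06). Thrsp, a regulator of lipogenesis, rose by 1.26, Fasn, the fatty acid synthase, by 0.94 and Srebf1, which encodes SREBP1, by 0.62, all chosen here after their values were seen. Scd2, a stearoyl-CoA desaturase, rose by 1.32 at 5000 µM and 1.48 in vehicle. Its mean of 399.9 at 48 h and 164 at 24 h at 5000 µM lay below 469, the dimmest mean signal tested, and its 3 other probe sets gave changes of 0.06, 0.20 and 0.27. Cholesterol synthesis genes had 4 rises and 2 falls of 20 tested (median 0.005), with Insig1, the sterol-regulated retention protein, at 0.49 and Sqle, the squalene epoxidase, at 0.40. By share 20% rose and 10% fell, against 10.8% and 16% of all genes tested.

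Oxidases and enzymes of amino acid breakdown had 19 rises and 6 falls of 42 tested, with a median of 0.201 at 5000 µM and -0.056 in vehicle. Hao1, the glycolate oxidase of liver peroxisomes, was 3546, 4274, 3792, 3934 and 3375 at 48 h, against 1199, 1280, 1238, 1225 and 1206 at 24 h. Its arrays were closely grouped at 24 h, and the change was 1.62 ± 0.13 (adjusted p = 1.14e-11). Vehicle wells had 6299.8 ± 920.2 at 48 h and 5782 ± 1332 at 24 h, and only the highest 5000 µM array at 48 h exceeded the lowest vehicle array, at 4099. The 5000 µM wells thus stayed below vehicle at both times in the mean, and the difference between the changes was 1.47 ± 0.18 (adjusted p = 7.66e-07). Hao2, a peroxisomal oxidase of long-chain 2-hydroxy acids, was 2783, 3205, 2918, 3531 and 3407 at 48 h, against 1577, 1028, 1152, 933 and 1356 at 24 h. It moved in the same way (change 1.41 ± 0.12, adjusted p = 3.36e-11, difference from vehicle 1.48 ± 0.16, adjusted p = 1.65e-07), again below the vehicle means of 4859.6 at 48 h and 5153 at 24 h. Gpt, the alanine aminotransferase used in the clinic as a marker of liver injury when it leaks into blood, went the other way. Its transcript was 3551, 2898, 2374, 2605 and 2296 at 48 h, against 8324, 8214, 7570.2, 6812 and 7882 at 24 h. The fall was 1.51 on the log2 scale (SE 0.13, adjusted p = 1.49e-10), and the difference from vehicle, where it fell by 0.53, was -0.99 ± 0.19 (adjusted p = 0.000441).

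Urea cycle and ammonia genes had 5 rises and 2 falls of 12 tested. Otc, ornithine transcarbamylase, rose by 0.70 and Car5a, the mitochondrial carbonic anhydrase that supplies bicarbonate, by 0.77, while Gls2, the liver glutaminase, fell by 0.59 and Cps1, the entry enzyme of the cycle, was not called at 0.16 (adjusted p = 0.121). Genes of glucose production and glycolysis had 7 rises and no fall of 20 tested. Fbp1, the fructose bisphosphatase of gluconeogenesis, rose by 0.68 with a difference from vehicle of 0.56 (adjusted p = 3.63e-05), Gys2, the liver glycogen synthase, by 0.58, and Pklr, the liver pyruvate kinase, by 0.45. The differences from vehicle of Car5a (0.53) and Gys2 (0.68) were no longer called with the β-actin ratio as a covariate, at 0.41 and 0.62.

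Bile acid genes are those of synthesis from cholesterol and of carriage across the hepatocyte membrane. Of 21 tested, 7 rose and 2 fell at 5000 µM with a median of 0.192, while in vehicle none rose, 9 fell and the median was -0.237. The difference was positive for 10 and negative for 1. Cyp8b1, the sterol 12-alpha-hydroxylase that sets the cholic acid share of bile acids, rose by 1.10 ± 0.10 (adjusted p = 3.42e-10), with means of 18786 at 48 h and 8854 at 24 h at 5000 µM, against 13342 and 14433 in vehicle. Baat, which conjugates bile acids to amino acids, rose by 1.10 ± 0.14 (adjusted p = 3.88e-07), with means of 10648 and 5067, against 9088 and 9644 in vehicle. Slco1b2, a sinusoidal uptake carrier of organic anions, rose by 0.94 ± 0.10 (adjusted p = 4.83e-09), with means of 1582 and 827, against 1424 and 1474 in vehicle. For all 3 the 24 h mean at 5000 µM was the lowest of the 4 and the 48 h mean the highest. Cyp7a1, which catalyses the committed step from cholesterol to bile acids, was dim and not called at 0.20 ± 0.19 (adjusted p = 0.482).

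Conjugating enzymes rose in part. Of 15 genes of glucuronidation and sulfation, 5 rose and 1 fell, against no rise and 1 fall in vehicle. Of 30 glutathione transferases and peroxidases, 12 rose (40%) and 2 fell (6.67%), against 11 rises and 1 fall in vehicle. Their median was 0.165 at 5000 µM and 0.116 in vehicle, with 5 positive and 2 negative differences from vehicle. Over all genes tested 10.8% rose and 16% fell. Sult2a6, a sulfotransferase of bile acids and hydroxysteroids, was 1662, 1072, 1536, 1566 and 1154 at 48 h, against 374, 144, 396, 456 and 412 at 24 h. All 5 arrays at 24 h lay under 469, and replicate 2 stood far below the other 4. The change was 2.05 ± 0.23 (adjusted p = 3.35e-08), and 1.75 without that array, and in vehicle the signal was 1569.5 to 1937 at 48 h and 1062 to 1789 at 24 h. Its difference from the vehicle change was 1.81 ± 0.33 (adjusted p = 0.000258). Ugt2b10, a glucuronosyltransferase, rose by 1.26 ± 0.07 (adjusted p = 2.12e-14), while Sult1e1, the estrogen sulfotransferase, fell by 0.88 (SE 0.14, adjusted p = 8.64e-06). Among glutathione transferases, Gsta3 rose by 1.15, Gstt3 by 0.99 and Gstm7 by 0.85. Gsta3 had means of 24468 ± 226 at 48 h and 11041 ± 475 at 24 h at 5000 µM, against 21750 ± 1087 and 17556 ± 1431 in vehicle, and a difference of 0.84 ± 0.07 (adjusted p = 1.19e-09). Gstt3 at 48 h stood at about 2 times the other 3 group means, 11756 against 5967 at 24 h and 5628 and 5992 in vehicle. Slc6a13, a carrier of GABA and taurine, had the same shape. It was 4971, 5159.6, 5222, 4699.5 and 4481 at 48 h, against 1916, 1759.8, 1469, 1348 and 1811 at 24 h, while vehicle wells held 1367 to 1763 at 48 h and 1244 to 1772 at 24 h. The 48 h arrays at 5000 µM stood above all vehicle arrays (change 1.57 ± 0.13, adjusted p = 1.72e-11, difference 1.54 ± 0.18, adjusted p = 3.25e-07).

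Cytochrome P450 enzymes of drug metabolism moved in both directions. The list also holds their electron donors Por and Cyb5a. Of 30 tested, 15 fell and 8 rose, with a median of -0.146 at 5000 µM, against 16 falls, no rise and a median of -0.309 in vehicle. Several of the largest falls were shared with vehicle. Cyp2e1, which forms the reactive metabolite of acetaminophen, was 5789, 6539.9, 6848, 7432 and 8786 at 48 h, against 11219, 12435, 13167, 13041 and 13137 at 24 h. It fell by 0.84 (SE 0.11, adjusted p = 2.26e-07) at 5000 µM and by 0.87 in vehicle, with a difference of 0.03 ± 0.15 (adjusted p = 0.92), at levels that were at each time above those of vehicle wells, 4012 ± 599 at 48 h and 7347 ± 955 at 24 h. Cyp1a2 fell by 1.20 (SE 0.12, adjusted p = 2.85e-09) at 5000 µM and by 1.45 in vehicle. Cyp2c13 fell by 1.59 in both, with means of 2917 at 48 h and 8756 at 24 h at 5000 µM against 2323 and 6974 in vehicle, read from a probe set that related transcripts share. Cyp2c23 fell by 1.27 and 1.00. None of these 4 had a called difference from vehicle.

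Cyp2c11, the main male-specific P450 of rat liver, which depends on pulses of growth hormone, fell further than in vehicle. It was 3067, 3311, 2374, 3124 and 4066 at 48 h, against 10030, 9543, 10099, 10562 and 9322 at 24 h. The fall was 1.66 (SE 0.12, adjusted p = 1.77e-12), against 1.03 in vehicle, where the means were 7904 ± 713 at 48 h and 16258 ± 2817 at 24 h. The difference of -0.63 (adjusted p = 0.00966) was -0.51 and not called with the β-actin ratio as a covariate. Cyp2c12, known as a female-predominant P450 of rat liver, had the largest fall of all, but on dim signals of 505, 285, 282, 503 and 49.3 at 48 h, against 1339, 1202, 1279, 1336 and 1210.2 at 24 h. The change was -2.34 ± 0.34 (adjusted p = 2.97e-06), -1.75 without 48 h replicate 5, and its difference from vehicle was -1.61, or -1.02 without that array. With the ratio as a covariate that difference was not called (adjusted p = 0.0518). Among other genes of the growth hormone axis (14 tested, 1 higher, 4 lower), Serpina3c fell by 1.52 at 5000 µM and by 1.58 in vehicle, and Hsd3b5 was not called at 0.16 (adjusted p = 0.48). The highest of the 8 members that rose was Cyp2a2, at 0.84 ± 0.10 (adjusted p = 1.17e-07) against -0.31 in vehicle, named after its value was seen.

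**Figure D3:**
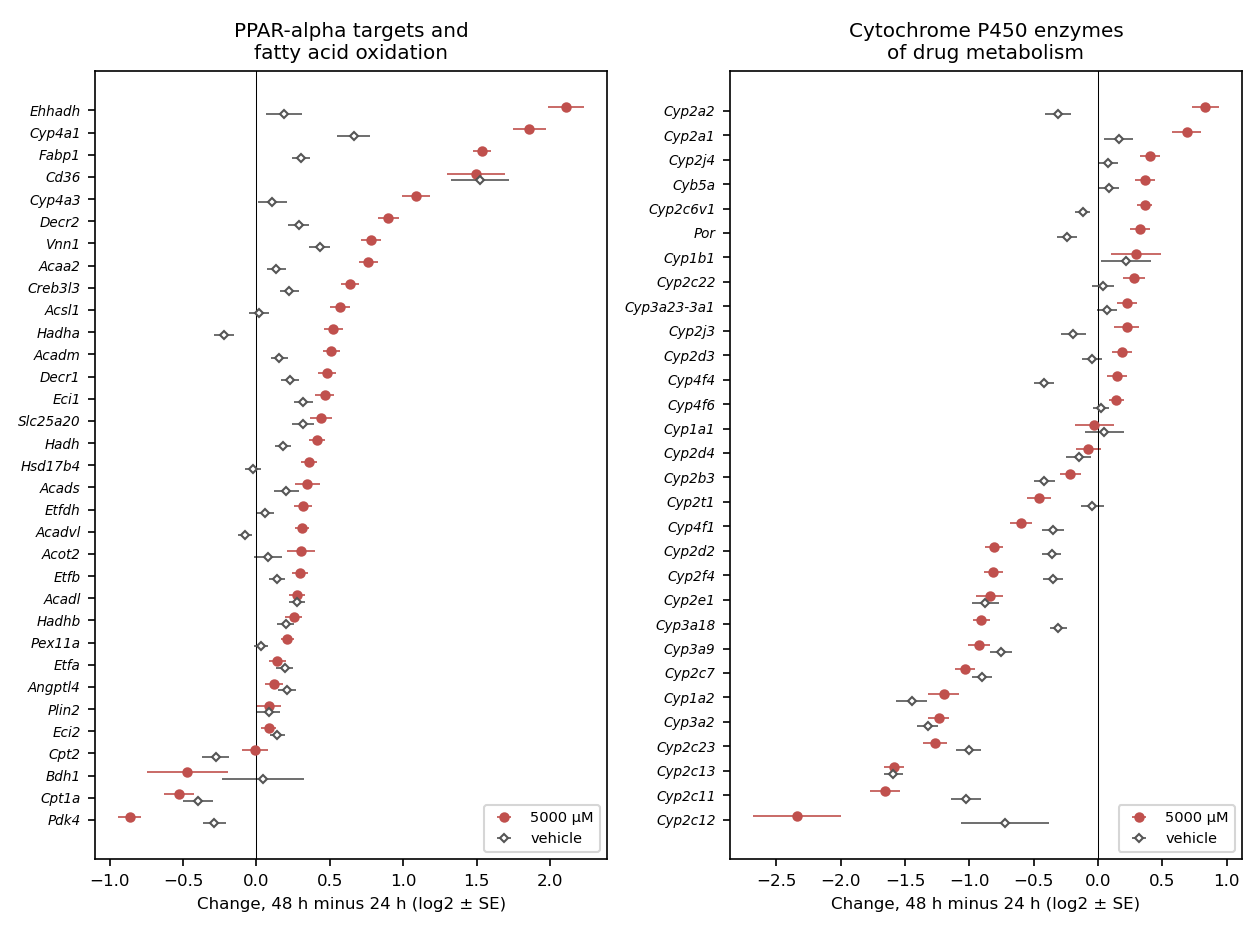
Change between 24 and 48 h (log2, points with SE bars) of each tested gene of fatty acid oxidation (left, 33 genes) and of the P450 list (right, 30 genes), at 5000 µM (red circles) and in vehicle (open diamonds). Most oxidation genes lie right of 0 with the 5000 µM value beyond the vehicle value, down to Pdk4 at the foot, while P450 genes reach from Cyp2a2, which rose, to Cyp2c12, with Cyp2e1 (-0.84 at 5000 µM, -0.87 in vehicle) and Cyp2c13 (-1.59 in both) close together.

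Transcripts of several secreted proteins were among the largest falls. Serpina6, the corticosteroid-binding globulin, was 555, 714, 579, 543 and 364 at 48 h, against 2207, 3474, 2863, 1848 and 2477 at 24 h. It fell by 2.22 (SE 0.19, adjusted p = 5.44e-11) at 5000 µM and by 1.83 in vehicle, and the difference was not called (adjusted p = 0.338). A2m, alpha-2-macroglobulin, an acute phase protein in rat, was 13556, 12784, 14044, 10757 and 10261 at 48 h, against 48612, 48130, 39609, 33787 and 43110 at 24 h. Its fall of 1.79 (SE 0.14, adjusted p = 1.13e-11) went beyond the 1.04 in vehicle, by -0.76 ± 0.20 (adjusted p = 0.00805). C9, the pore-forming terminal component of complement, was 2825, 2492, 2356, 2118 and 1763 at 48 h, against 8122, 6588, 7109.9, 6970.5 and 7480.4 at 24 h. The change was -1.66 ± 0.09 (adjusted p = 6.52e-16), with 6329.7 ± 557 at 48 h and 9152 ± 784 at 24 h in vehicle and a difference of -1.13 ± 0.12 (adjusted p = 8.3e-08). The list of acute phase and complement genes was mixed, with 11 falls and 5 rises of 30 tested, a split that centring on the array median changed to 9 and 9. Crp, C-reactive protein, was the largest rise in it at 0.79 (adjusted p = 3.01e-06), with a mean of 33564 at 48 h and 19424 at 24 h, against 34510 and 29085 in vehicle. Among secreted carriers and apolipoproteins 9 fell and 1 rose of 23 tested, against 7 falls and 1 rise in vehicle. Apoa2, of high-density lipoprotein, fell by 1.11 (0.79 in vehicle) and Apoc1 by 0.51 (0.42 in vehicle). Lcat, the cholesterol acyltransferase of plasma, fell by 0.54. The differences from vehicle of Lcat (0.08) and Apoc1 (-0.09) were not called. That of Apoa2 (-0.33) was called, but not with the β-actin ratio as a covariate. The list's median was 0.042 as deposited and -0.05 after quantile normalization, so it had no settled sign. Alb, albumin, was not called at 0.11 (adjusted p = 0.544). Coagulation factors had 3 falls and 2 rises of 16 tested, against 6 falls and no rise in vehicle. The falls were led by Klkb1, plasma prekallikrein, at 0.94 and Plg, plasminogen, at 0.57, neither with a called difference from vehicle. Serpinf2, the plasmin inhibitor, rose by 0.35, with a called difference of 0.76. By share 18.8% of these factors fell and 12.5% rose at 5000 µM, close to the 16% and 10.8% of all genes tested.

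Of 19 interferon-stimulated and antigen presentation genes tested, 9 fell and none rose at 5000 µM (median -0.259, 7 falls under median centring), and 7 fell and 2 rose in vehicle (median -0.186). The difference was negative for 4 and positive for 1. Isg15, the ubiquitin-like modifier, was 1138, 725, 1014, 545 and 665 at 48 h, against 2275, 2183, 2790.2, 1676 and 2273 at 24 h. It fell by 1.49 (SE 0.18, adjusted p = 1.55e-07), against 0.74 in vehicle, and the difference of -0.75 (adjusted p = 0.0447) was lost under 4 other settings and 11 of 20 leave-one-out fits. Irf7, the interferon regulatory factor that amplifies the response, was 3472, 3274, 3402, 3766 and 3502 at 48 h, against 8244, 9904, 7121, 6214 and 8061 at 24 h. Its fall of 1.17 (SE 0.10, adjusted p = 6.24e-11) was close to the 1.02 in vehicle (difference -0.14, adjusted p = 0.53). Mx2, an antiviral dynamin-like GTPase, fell by 1.17 at 5000 µM and 1.29 in vehicle, but its dimmer probe set gave 0.39, not called. Ifitm3, an interferon-induced membrane protein that is outside the list, was 2907, 2984, 2456, 2062 and 2114 at 48 h, against 8745, 9263, 9495, 7237 and 9551 at 24 h. It stood far lower at 48 h (change -1.83 ± 0.10, adjusted p = 1.1e-14), and unlike Irf7 its fall exceeded the 0.51 of vehicle, by -1.32 ± 0.15 (adjusted p = 2.22e-07). RT1-CE5, a class I histocompatibility gene, fell by 0.66 at 5000 µM and rose by 0.65 in vehicle (difference -1.31 ± 0.16, adjusted p = 5.42e-07). Of its other 4 probe sets, which related class I transcripts can share, 1 was called at 5000 µM (-0.57) and 3 had a called negative difference, while with the mean of all probe sets the 5000 µM change was -0.27 and not called.

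Stretches before the start of 3 of these genes are shown because they moved together and hold the interferon-response type repeat, GAAA repeated after 2 bases, searched on both strands from 250 bases before to 50 after the gene start. Of 14 list members with a promoter entry in RefSeq (GRCr8), 9 held it, against 3.92% of all 33469 entries, and of the 6 that fell and had an entry, 4 did (Irf7, Rsad2, Tap1 and Tap2). Isg15, Mx2 and Usp18 had no entry. Capitals mark the match, which begins 44 bases before the start in Ifitm3, 69 in Irf7 and 147 in Rsad2, an antiviral radical-SAM enzyme that fell by 0.91. Each run gives the 160 bases before the start on the coding strand, 5′ to 3′, and all 3 genes lie on the minus strand:
Ifitm3 upstream stretch, chr1:205541759-205541918: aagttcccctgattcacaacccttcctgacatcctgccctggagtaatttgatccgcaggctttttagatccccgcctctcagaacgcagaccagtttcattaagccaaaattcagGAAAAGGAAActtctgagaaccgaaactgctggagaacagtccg
Irf7 upstream stretch, chr1:205800024-205800183: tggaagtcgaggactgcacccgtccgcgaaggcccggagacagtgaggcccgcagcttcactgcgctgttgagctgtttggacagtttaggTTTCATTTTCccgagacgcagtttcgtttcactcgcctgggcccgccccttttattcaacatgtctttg
Rsad2 upstream stretch, chr6:48788121-48788280: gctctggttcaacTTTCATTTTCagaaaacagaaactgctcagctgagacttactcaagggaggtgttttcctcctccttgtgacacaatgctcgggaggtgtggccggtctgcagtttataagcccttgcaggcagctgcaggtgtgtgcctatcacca
The repeat was also in the windows of B2m, Ifi27, Oas1a, Psmb10 and Psmb8, which were not called. A match is a run of letters and not a measured binding site.

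S100a6, a small calcium-binding protein, was one of the largest falls and had the most negative difference from vehicle. Its signal was 2374, 1881, 1525, 1328 and 1669 at 48 h, against 6421, 5538, 6781, 6163 and 6243 at 24 h. Vehicle wells had far more, 9915 to 11804 at 48 h and 11969 to 13868 at 24 h. The fall at 5000 µM was 1.85 (SE 0.12, adjusted p = 6.74e-14) and the difference -1.66 ± 0.16 (adjusted p = 2.7e-08). Wfdc21, a small secreted protein of the whey acidic protein family, was 11250, 11945, 8395, 7489 and 7999.6 at 48 h, against 26666, 24841, 28343, 26417 and 25907 at 24 h. It fell by 1.51 (SE 0.09, adjusted p = 3.71e-14), while vehicle wells held 30655 ± 1225 at 48 h and 35704 ± 1658 at 24 h (difference -1.29 ± 0.13, adjusted p = 3.9e-08). Of 11 S100 and annexin genes, 5 fell and 1 rose (S100a11, 0.32, against 0.70 in vehicle), and 6 had a negative difference from vehicle, although after median centring only 1 fall was called. Actin, tubulin and dedifferentiation genes had 10 falls and 2 rises of 24 tested, with a median of -0.174 at 5000 µM and 0.076 in vehicle, and 8 negative differences and no positive one, and 6 falls and 3 rises under median centring. Tpm4, a tropomyosin, fell by 0.53 (difference -0.58, adjusted p = 7.32e-05), and Tubb6, a beta-tubulin, by 0.56 in its brightest probe set. The mean of both Tubb6 probe sets gave the opposite sign, a change of +0.53 that was not called. Its second probe set was dim, with a mean signal of 72.4. Tmsb4x, which binds actin monomers, rose by 0.41 at 5000 µM and 0.33 in vehicle.

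Ndrg1, a stress and hypoxia-responsive gene, was 1898, 1687, 1446, 1408 and 1039 at 48 h, against 3590.1, 4419, 3383, 2246 and 3271 at 24 h. It fell by 1.17 (SE 0.16, adjusted p = 7.18e-07), while vehicle wells held 4829 ± 307 at 48 h and 4149.8 ± 846 at 24 h, a difference of -1.41 ± 0.22 (adjusted p = 4.13e-05). The other 17 tested hypoxia-responsive genes gave 1 more call, Ankrd37 at 0.52. Of 28 NRF2 targets and glutathione synthesis genes, 10 fell and 1 rose (median -0.132), against 6 falls under median centring and 14 after quantile normalization. In vehicle 9 of the 28 fell and 2 rose (median -0.09), and the difference from vehicle was positive for 3 and negative for 3. The falls at 5000 µM were led by Akr1b8, an aldo-keto reductase, at 0.91. Slc7a11, the cystine carrier, fell by 0.76 and Cbr1, a carbonyl reductase, by 0.45. Nqo1, the quinone reductase, fell by 0.24, a call lost under median centring and without 48 h replicate 1. Akr1b8 differed from vehicle by -1.23 ± 0.18 (adjusted p = 1.45e-05), with means of 825 at 48 h and 1539.7 at 24 h at 5000 µM, against 3477 and 2754 in vehicle. Hmox1, heme oxygenase, and Gclc, which limits glutathione synthesis, were not called at -0.06 and 0.02. The ATF4 and CHOP list of 31 held 6 falls and 2 rises (4 and 4 under median centring), with Slc3a2, the heavy chain of amino acid carriers, down by 0.69, Ddit3, which encodes CHOP, by 0.59, and Psat1 of serine synthesis up by 0.68. By share 19.4% fell and 6.45% rose, near the 16% and 10.8% of all genes tested. Atf3 (-0.22), Asns (-0.11) and Gdf15 (-0.25) were not called, though Gdf15 differed from its rise in vehicle by -0.87 (adjusted p = 0.00549). Heat shock proteins had 7 falls and 1 rise of 19, led by Hspa1a, an inducible Hsp70, down by 0.57. Of 16 p53 targets, 4 fell and 1 rose (2 and 2 under median centring), with Ccng1, cyclin G1, down by 0.59 and Cdkn1a, which encodes p21, not called at -0.24 (adjusted p = 0.199). The dimmer Cdkn1a probe set was not called either, at -0.20. Its difference from vehicle was called at -0.52, while that of the brightest was 0.18 and not called.

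Mitochondrial and biosynthetic lists moved by small amounts. Nuclear-encoded subunits of oxidative phosphorylation had 30 rises and 1 fall of 54 tested, with a median of 0.163 at 5000 µM and 0.121 in vehicle, where 17 rose. Only 3 had a positive difference from vehicle. Ndufs3 (0.43) and Ndufs7 (0.34) of complex I were the largest rises, and Ndufb8, also of complex I, fell by 0.60, a call lost without 24 h replicate 2 or 48 h replicate 4. Lysosome and autophagy genes had 14 rises and 3 falls of 33, against 9 and 3 in vehicle, with the cathepsins Ctsc at 0.45 and Ctsz at 0.44. Of these 33, 5 had a positive and 4 a negative difference from vehicle. Ribosome biogenesis genes had 10 falls and no rise of 34 (median -0.188), with Rrp12 down by 0.89 in the brightest of 3 probe sets, 1 of which was not called, and Mybbp1a by 0.40, against 5 falls under median centring. Aminoacyl-tRNA synthetases had 5 falls of 19, none of which was called under median centring. In vehicle 8 of the 19 fell (median -0.158, against -0.175 at 5000 µM), and the 1 called difference was positive. Cytosolic ribosomal protein genes had 2 falls of 38, and 13 after quantile normalization.

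**Figure D4:**
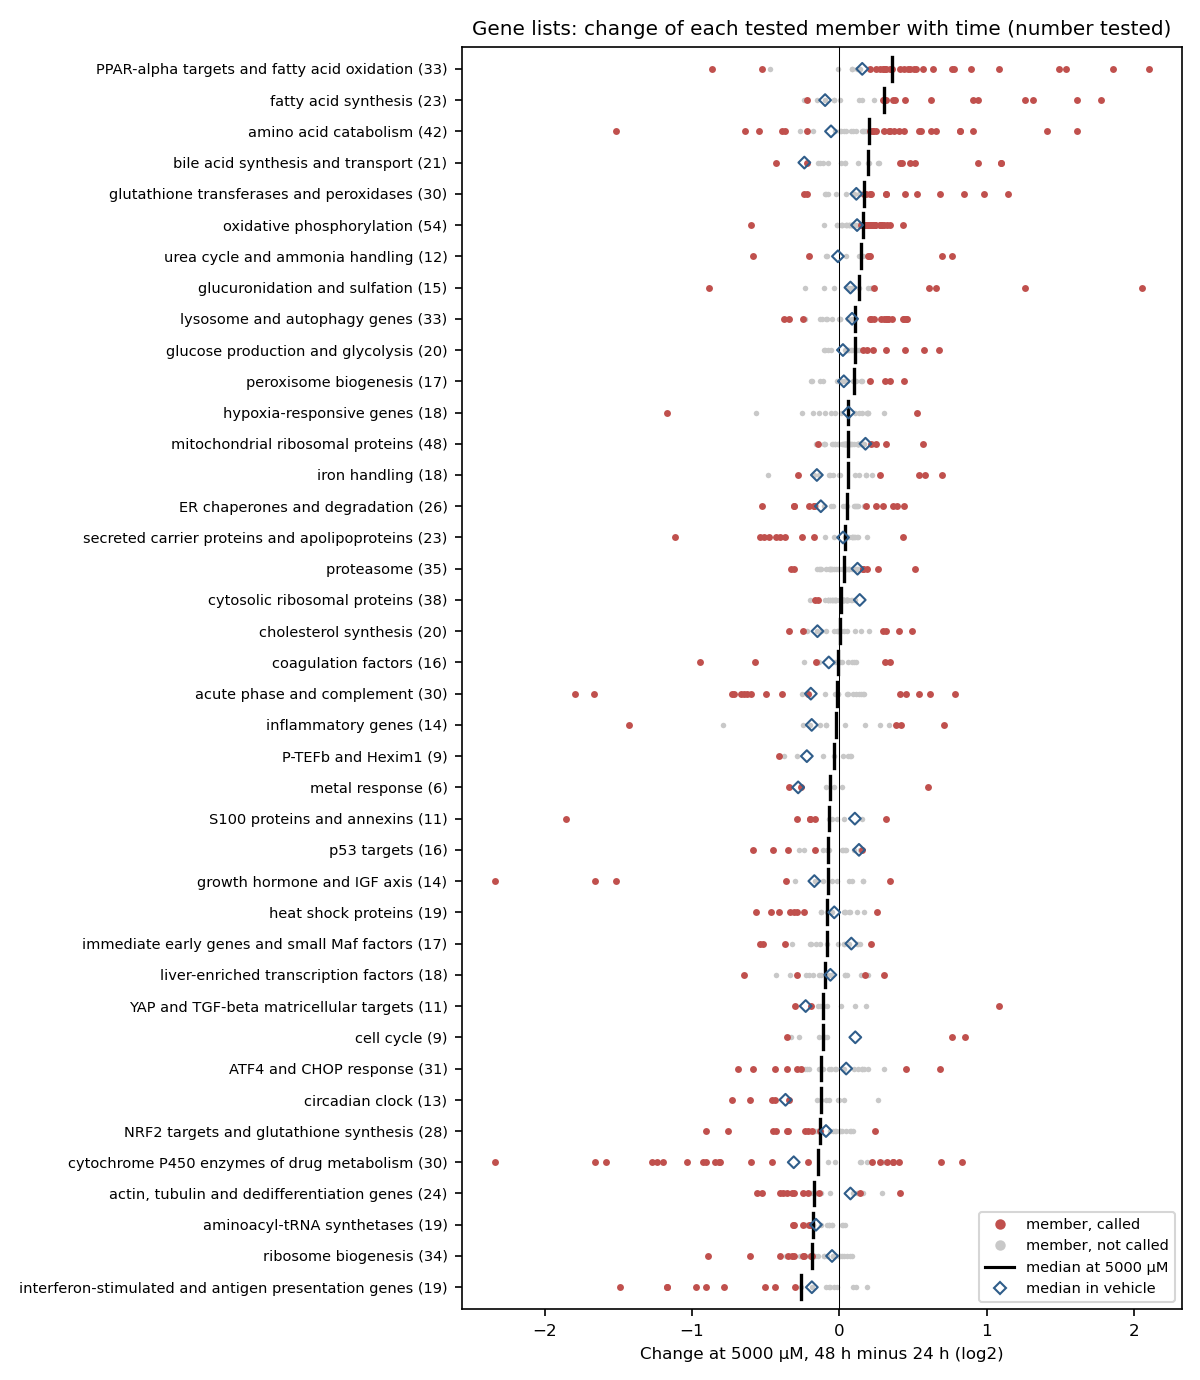
Change between 24 and 48 h at 5000 µM (log2) of each tested gene in 40 lists, ordered by median, with the number tested in brackets. Red points are called genes, grey points genes not called, black bars the list median at 5000 µM and open diamonds the list median in vehicle; fatty acid oxidation (0.358) and fatty acid synthesis (0.304) stand at the top and interferon-stimulated genes (-0.259) at the foot.

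The remaining genes among the 15 largest changes in each direction were of mixed function. Il1rn, the interleukin-1 receptor antagonist, fell by 1.43 (difference from vehicle -0.90, adjusted p = 0.0135, not called with the ratio as a covariate) and Pglyrp1, a peptidoglycan recognition protein, by 1.30 (difference -0.90, adjusted p = 6.25e-05). Tsx rose by 1.83 at 5000 µM and 1.57 in vehicle, and Clec14a, a lectin known from endothelial cells, by 1.54 and 1.15. The tested endothelial marker Kdr was not called at 0.09. Clec14a at 24 h (242) and Lrmda at 24 h (176), which rose by 1.62, were below the dimmest mean signal tested. Lrmda's difference from vehicle, 0.86, was not called with the ratio as a covariate. Among the most positive differences from vehicle, Cdh17, an intestinal and liver cadherin, rose by 1.04 at 5000 µM and fell by 0.36 in vehicle (difference 1.40 ± 0.17, adjusted p = 5.61e-07). Bcar1 (2.59), Olr59 (1.51) and Ptov1 (1.46) were not called at 5000 µM itself, and none of these 3 differences was called with the ratio as a covariate. Bcar1 overlapped at 5000 µM, with 114 to 658 at 48 h and 166 to 982 at 24 h, and was separated in vehicle, with 119.8 to 169.9 at 48 h and 1109.8 to 1492 at 24 h. Among the most negative, Il33, an alarmin cytokine, fell by 1.21 to a mean of 334 at 48 h, against 768 at 24 h, with 522 and 517 in vehicle. Giot1 fell by 0.96, while its change in vehicle was upward, at 0.27, and not called. Sfn, 14-3-3 sigma, was not called at -0.34 (adjusted p = 0.0919) but rose by 0.89 in vehicle.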

How the data were processed

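RNA of 30 wells was hybridised to 1 rat expression array each. The deposited values are MAS5 probe set intensity on a linear scale, per the submitters' processing notes. The scaling target, scanner settings and MAS5 version were stated in no source used here. Trimmed by 2%, the mean signal per array was 1500.55 to 1500.66, so the arrays share 1 level. No count stands behind a value, and the number of arrays limits the precision.

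Of 31099 probe sets, 57 were controls, 20826 carried 1 gene symbol in the platform annotation, 436 several and 9780 none. Symbols of 20758 were updated through their Entrez numbers. Each gene was read from its brightest probe set, the brightest 60% of 14217 genes were kept (8530, mean signal of at least 469), and log2 values were fitted with limma 3.58.1 in R 4.3.3. The fit had 1 mean per group, empirical Bayes variances with an intensity trend and 24 residual degrees of freedom (7.58 prior). Adjusted p-values are Benjamini-Hochberg values over all 8530 genes. The code was also run on simulated arrays in which genes varied independently and few were changed. Real arrays differ in both respects, so that run does not measure error rates in these data. Tables were handled in Python 3.11.15 with pandas 2.3.3.

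The 155 named genes were the 15 largest called changes each way with groups that did not overlap, the 10 most positive and negative called differences from vehicle, the top 3 called genes of each of 40 lists, and genes of known interest. The 40 lists held 1176 members, 1026 on the array and 914 tested. The comparison, lists and rule were chosen with earlier results of these data known. Genes outside the rule (Cyp4a3, Decr2, Acaa2, Hadha, Cpt1a, Thrsp, Fasn, Srebf1, Cyp2a2 and Rsad2) were chosen after their values were seen and were not run under the alternatives. Alternatives were array scaling, the filter on dim genes, the mean of all probe sets, the 3'/5' ratio as a covariate, the arrays fitted, the variance model, leaving out each array and, added after seeing the data, runs of title numbers as a block. Arrays of 500 µM wells were not analysed here beyond the shared spread and the group means of Ehhadh and Cyp4a1.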

Additional observations from a re-analysis of the deposited data

Results flagged for a closer look

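Among 52 group values tested for a sample far from the other 4 of its group, 3 stood out, and chance alone gives about 1 in 20. They were the β-actin 3'/5' log2 ratio of 5000 µM 24 h replicate 1 at 1.76, the Sult2a6 signal of 5000 µM 24 h replicate 2 at 144.2, and the Cyp2c12 signal of 5000 µM 48 h replicate 5 at 49.3. Without these arrays the Sult2a6 change was 1.75 and the Cyp2c12 change -1.75.

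The change with time differed between 5000 µM and vehicle, by the limma test of the difference itself, for 1399 genes. Named genes with a positive difference (log2, 5000 µM change minus vehicle change) were Bcar1 at 2.59, Ehhadh at 1.92, Sult2a6 at 1.81, Slc6a13 at 1.54, Olr59 at 1.51, Hao2 at 1.48, Hao1 at 1.47, Ptov1 at 1.46, Cdh17 at 1.40, Fads1 at 1.36, Fabp1 at 1.23, Cyp4a1 at 1.20, Hsd17b13 at 1.13, Lrmda at 0.86 and Pnpla3 at 0.85. A negative difference was found for S100a6 at -1.66, Cyp2c12 at -1.61, Ndrg1 at -1.41, Ifitm3 at -1.32, RT1-CE5 at -1.31, Wfdc21 at -1.29, Akr1b8, Giot1 and Sfn at -1.23 each, Il33 at -1.22, C9 at -1.13, Gpt at -0.99, Il1rn and Pglyrp1 at -0.90 each, A2m at -0.76, Isg15 at -0.75 and Cyp2c11 at -0.63. With the β-actin ratio as a covariate Bcar1, Olr59, Ptov1, Lrmda, Cyp2c12, Il1rn, Isg15 and Cyp2c11 were no longer called. The part of RNA quality in these 8 differences was not tested further.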

How the results depend on the processing

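The labels carry no replicate numbers shared between groups, but the running numbers in the titles form 5 runs, each with 1 array of every group. Between 5000 µM 48 h and 24 h arrays of a run, the deviations from the group means correlated at -0.146 to 0.112, and 2 of 5 arrays at 48 h correlated best with the 24 h array of their own run. In vehicle the correlations were -0.0999 to 0.269, and 4 of 5 arrays at 48 h correlated best with their own run, so runs may link vehicle wells. The main fit did not pair wells by run. With the run as a replicate block, an alternative chosen after seeing the data, 2432 genes were called at 5000 µM and 1634 for the difference, and no named gene lost its call. The count of genes called at 5000 µM (2293) lay between 1889 and 2337 under the other settings without this block, while leave-one-out fits gave 2020 to 2182. The count for the difference from vehicle (1399) fell to 821 with the β-actin ratio as covariate. Its leave-one-out fits gave 1105 to 1725, the highest without 5000 µM 24 h replicate 1. The β-actin ratio difference ranged from -0.1971 to -0.0599 when 1 array was left out, passing the threshold without 24 h replicate 4 (exact permutation p = 0.0159) or 24 h replicate 5 (-0.179, exact permutation p = 0.0397), and the GAPDH difference (-0.03, exact permutation p = 0.389) from -0.0508 to -0.0038. In vehicle wells the GAPDH ratio also fell from 24 to 48 h, by -0.124 (exact permutation p = 0.00794). Some signs turned. With the mean of all probe sets, Psme4 was 0.0529 and Tubb6 0.53 at 5000 µM, and the Tubb6 difference was 0.75. The Cd36 difference was 0.53 with that ratio as covariate, and the cell cycle median was 0.76 among the brightest 40% of genes, where fewer genes were tested. List medians near 0 also changed sign, among them those of acute phase, coagulation and inflammatory genes with median centring and of proteasome, secreted carrier and cytosolic ribosomal protein genes after quantile normalization. Apart from the fewer genes tested and the dim second Tubb6 probe set (1.61), the cause was not tested. Of 155 named genes, 137 were called at 5000 µM, and 111 of them lost that call under no alternative in which they were tested. For the difference 83 were called, and 58 of them lost the call under no such alternative. A gene too dim for the filter of a setting, such as the brightest 40% of genes, was not tested there and counts as keeping its call. Named genes with a mean signal under 469 in a 5000 µM or vehicle group (Bcar1, Cebpd, Clec14a, Cyp2c12, Cyp7a1, Giot1, Il1rn, Il33, Lrmda, Olr59, Ptov1, Scd2, Serpina6, Sult1e1, Sult2a6, Tsx and Utp20) are limited by dim signals.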

Other observations

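Circadian clock genes had 5 falls and no rise of 13 tested at 5000 µM (median -0.124) and 8 falls in vehicle (median -0.365). The falls at 5000 µM included Nfil3 (-0.60), Rora (-0.73, but -0.18 and not called with the mean of its probe sets) and Bmal1 (-0.46, not called without 48 h replicate 3). Iron handling genes had 4 rises and 1 fall of 18, among them the iron carriers Slc40a1 (0.54) and Slc11a2 (0.70), whose second probe set gave -0.0839, not called. Among ER chaperone and degradation genes 6 rose and 6 fell of 26, while 9 had a positive difference from vehicle and none a negative one, with Herpud1 (0.44) and the disulfide isomerase Pdia4 (0.39) rising most. Liver-enriched transcription factors had 2 rises and 2 falls of 18, with Cebpd at -0.65 and Nr1h3, which encodes LXR-alpha, at 0.30. Inflammatory genes had 3 rises and 1 fall of 14, with the chemokine gene Ccl9 at 0.71. Over all genes tested 10.8% rose and 16% fell, and liver-enriched transcription factors, at 11.1% each way, were close to that.

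Immediate early genes and small Maf factors had 3 falls and 1 rise of 17, led by Maff (-0.54) and Klf10 (-0.52). Mitochondrial ribosomal protein genes had 4 rises and 1 fall of 48, against 22 rises and no fall in vehicle. Proteasome genes had 5 rises and 2 falls of 35, against 11 and 4 in vehicle. YAP and TGF-beta matricellular targets had 1 rise, Serpine2 at 1.09, and 2 falls of 11. Cell cycle genes had 2 rises and 1 fall of 9, metal response genes 1 rise and 2 falls of 6, and the P-TEFb list, with Hexim1 not called at 0.06, 1 fall of 9 (Aff4 at -0.41). Against 10.8% rises and 16% falls over all genes tested, proteasome genes had 14.3% and 5.71%, and YAP and TGF-beta targets 9.09% and 18.2%.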
